A study of Mus musculus with 16 samples.

Results

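Serpins are proteins of 1 fold, most of which block serine proteases, and the genes studied here are those whose name on the array is Serpin followed by a clade letter and a number, with Serpina6 left out. The rule gave 53 genes and 72 probes, out of 27671 gene names on the array, and 1 probe stood for each gene, the one with the highest mean log2 signal over all arrays. By clade they were 19 genes of clade A, 24 of clade B, 2 each of clades E, F and I, and 1 each of clades C, D, G and H. Liver messenger RNA of C57BL/6 males aged 3 months was measured on 16 Agilent mouse arrays, each with 1 sample. Wild-type and GR knockout mice were each left untreated or given dexamethasone, which made 4 groups of 4 arrays. Dexamethasone is a synthetic glucocorticoid and acts through the glucocorticoid receptor (GR), the product of Nr3c1. The labels call the animals GR liver knockouts, and neither a Cre driver, the deleted exons nor the dose, route or duration of the steroid is given in the sources used here. The knockout titles include PBS, and vehicle is mentioned in the protocol although the source names read no treatment.

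A serpin presents a reactive loop as bait, is cleaved by its target protease, and traps the protease in an inactive covalent complex. Hepatocytes secrete many of them into plasma, among them the antitrypsins and antichymotrypsins of clade A, antithrombin, heparin cofactor II, antiplasmin and the complement C1 inhibitor, while most clade B members stay inside cells and guard them against proteases of leukocyte granules. In rodents the Serpina1 and Serpina3 genes have multiplied into tandem copies on 1 chromosome, and several clade A members carry hormones or have no known protease target.

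The sequences shown are those of the 2 Serpina3 genes called higher with dexamethasone, and of probes that matter for reading the values. Serpina3c and Serpina3n lie in the same gene cluster on opposite strands, and the 250 bases before their starts are printed from RefSeq (GRCm38.p6), with AGAACA in capitals, the 6 bases that form one arm of the element to which the glucocorticoid receptor binds.
Serpina3c, chr12:104153873-104154122, minus strand: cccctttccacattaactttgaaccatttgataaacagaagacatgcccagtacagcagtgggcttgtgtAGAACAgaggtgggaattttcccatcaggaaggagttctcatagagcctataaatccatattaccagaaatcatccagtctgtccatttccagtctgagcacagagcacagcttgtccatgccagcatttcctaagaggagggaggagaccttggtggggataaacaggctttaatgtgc
Serpina3n, chr12:104406458-104406707, plus strand: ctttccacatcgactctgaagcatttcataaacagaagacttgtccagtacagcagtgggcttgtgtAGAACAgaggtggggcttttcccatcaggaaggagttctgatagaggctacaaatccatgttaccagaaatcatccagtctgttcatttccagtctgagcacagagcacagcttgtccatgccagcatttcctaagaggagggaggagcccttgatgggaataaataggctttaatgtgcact
In a global alignment 229 of 247 aligned bases were identical between them (92.7%), with 6 gap columns. Between Serpina3b and the same pair the identity was 73.8% and 75.7%. AGAACA or its complement TGTTCT on either strand was found in 16.1% of the 32851 promoters of the same length in the table. RefSeq promoters were matched for 44 of the 53 members, and for 28 of the 36 that were tested. The letters were in 8 of these 28, namely Serpina1b, Serpina1d, Serpina1e, Serpina3b, Serpina3c, Serpina3f, Serpina3n and Serpina5. In Serpina3c they began 180 bases before the start, in Serpina3n 183 and in Serpina5 216. The whole element, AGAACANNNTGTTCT, occurred in 0.00913% of all promoters and in 0 of the 28. TTCNNNGAA, a STAT site, was in 7.02% of all promoters and in 5 of the 28, Serpina11, Serpina1f, Serpina3f, Serpina3g and Serpinb6a. A gene was counted where any of its promoters held the letters, while the percentages are per promoter, so the units differ. A match of letters is a description and not a site of binding.

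Of the array's own sequences, 3 probes of 60 bases are shown, in the orientation of the transcript and in lower case throughout, with positions on the mm7 build that the deposited annotation uses. The probe of Serpine2, the member with the lowest adjusted p between genotypes, and the second probe of Serpina5 each span more genome than their length, so they cross a splice junction. The probe named Serpina1e is listed in the annotation for the transcripts of Serpina1b, Serpina1c, Serpina1d and Serpina1e, so its value is not that of 1 gene.
Serpine2 probe, chr1:80011225-80013842, minus strand: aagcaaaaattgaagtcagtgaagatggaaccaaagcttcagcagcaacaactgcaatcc
Serpina5 probe, chr12:101598175-101599524, plus strand: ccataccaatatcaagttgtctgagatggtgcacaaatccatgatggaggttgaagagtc
Serpina1e probe, chr12:101445204-101445263, minus strand: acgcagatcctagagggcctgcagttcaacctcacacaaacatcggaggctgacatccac
The probe of Serpina1d is likewise listed for Serpina1c, Serpina1d and Serpina1e. Among all pairs of probes of different members, set against each other without gaps, 75% or more of at least 20 overlapping bases were the same for 1 pair, Serpinb9e and a second probe of Serpinb9g, with 38 of 50. Probes were set against probes only, so this does not show whether a probe also matches the transcript of another member.

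Levels below are log2 signals relative to the array's own 75th percentile, and a difference is between means of 4 arrays, with the SE of the limma fit to all 16 arrays. A gene was called at an adjusted p (Benjamini-Hochberg, over all 18476 genes tested) under 0.05, two-sided. The 75th percentile of the signal was between 524 and 691 on 14 arrays, 400 on array 4 of untreated wild type and 309 on array 1 of untreated knockout, and the last had a mean r across genes of 0.963 with the rest of its group, whose other arrays had 0.975 to 0.98. Nr3c1 itself was at 1.92 to 2.52 on the wild-type arrays and at -0.11 to 0.57 on the knockout arrays, lower by 1.99 without and 1.96 with dexamethasone (SE 0.14 each, adjusted p = 1.7e-05 and 6.3e-06). Slide cannot be told apart from group, because the 4 arrays on a slide were always 1 group. The labels do not say that each replicate was a separate mouse, so p-values measure the spread between these samples, and the number of arrays limits the precision. The 5 comparisons share arrays and are not independent of each other. In RNA of whole liver, fewer cells of a type and less RNA per cell cannot be told apart.

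Of the 53 serpins, 36 passed the filter (3 or more of the 4 arrays of some group above background) and were tested. The other 17 were Serpina3a, Serpini1, Serpini2 and 14 of clade B (Serpinb2, b3a, b3b, b3d, b5, b7, b9b, b9c, b9d, b9g, b10, b11, b12 and b13). Of these, 10 were above background on 0 arrays and none on more than 4. Of the tested members, 28 were above background on all 16 arrays. Serpina1f, Serpina3b and Serpinb1b passed through 1 group only, so they had to be higher there. Of these Serpina3b has calls, which are given with the counts below but support nothing.

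In wild-type liver limma called 5 serpins higher with dexamethasone and 3 lower. Serpina3c, Serpina3n, Serpina5, Serpine2 and Serpinb9e were higher, against 5.11% of all genes tested, and Serpina3b, Serpinb8 and Serpinf2 were lower, against 6.86% of all genes. Serpina3b was above background on 1 of the 8 wild-type arrays, so its difference is not read as a fall. In knockout liver limma called 0 higher, against 1.19% of all genes (2 had an unadjusted p under 0.05), and 1 was lower, Serpinb9e, against 2.44%. Their difference, the interaction, was called for 5 members. The knockout response lay above the wild-type response for Serpina3b and Serpinf2 (1.93% of all genes) and below it for Serpine2, Serpinb6b and Serpinb9e (2.69% of all genes).

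Without dexamethasone 3 serpins were higher in knockout than in wild type, Serpinb3c, Serpinb6b and Serpinb9e, against 2.07% of all genes, and 2 were lower, Serpina3k and Serpine2, against 0.752%. With dexamethasone 4 were higher, Serpina3b, Serpina7, Serpinb3c and Serpinb8, against 14.2% of all genes. Another 7 were lower, Serpina3c, Serpina3k, Serpina3m, Serpina3n, Serpina5, Serpine2 and Serpinb9e, against 8.21%. Over all 36 the median difference was -0.07 for dexamethasone in wild type and 0.06 in knockout, beside -0.04 and 0.00 over all genes, and the genotype medians were -0.10 without and 0.02 with dexamethasone, beside 0.05 and 0.09. With untreated wild-type array 4 and untreated knockout array 1 left out together, 8 members were called for dexamethasone in wild type, 1 in knockout, 6 for the interaction, 3 between untreated genotypes and 14 between treated ones. With normexp background correction 17 of the 30 calls were lost and 1 turned sign, and the lost ones held every call between untreated genotypes and every interaction.

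**Figure D1:**
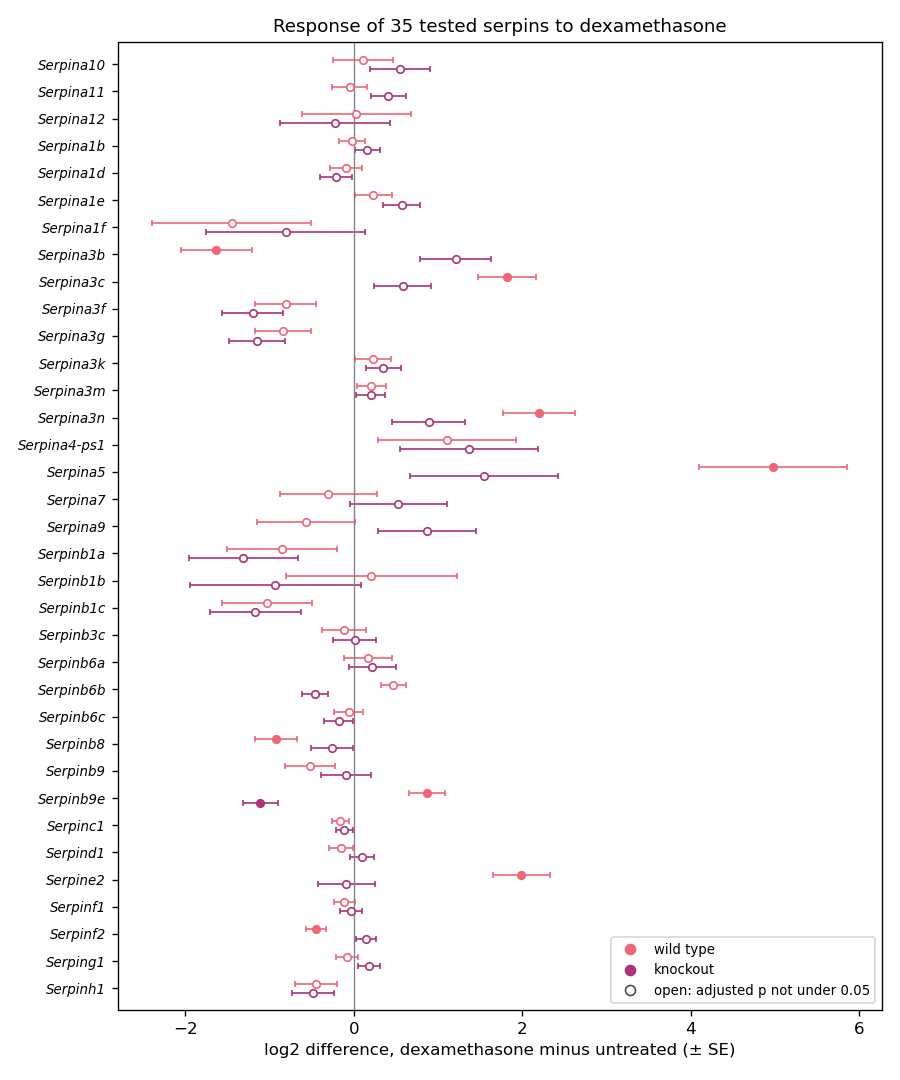
Log2 difference, dexamethasone minus untreated, of 35 of the 36 tested serpins in wild type (pink) and knockout (purple), with the SE of the fit as bars and filled points where the adjusted p is under 0.05. In wild type 5 filled points lie right of 0 and 3 left of it, and in knockout the filled point is Serpinb9e, at -1.11.

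Among the antichymotrypsin-like genes of clade A, Serpina3n, a secreted acute phase inhibitor of leukocyte proteases, and Serpina3c had nearly the same course. The probes of Serpina3f, Serpina3g, Serpina3k and Serpina3m lie between theirs on the chromosome. Serpina3n was at 3.63, 3.21, 3.26 and 3.82 on the untreated wild-type arrays and at 6.02, 5.69, 5.54 and 5.49 with dexamethasone. In knockout it was at 0.62, 2.72, 2.55 and 3.14 without and 2.84, 2.63, 3.07 and 4.04 with dexamethasone. The treated wild-type arrays lay above all others, and the lowest value was that of untreated knockout array 1. The rise in wild type was 2.20 (SE 0.43, 4.61-fold, adjusted p = 0.00496), and in knockout the difference was 0.89 (SE 0.43, adjusted p = 0.327). The difference between the responses was -1.32 (95% interval -2.63 to -0.01, adjusted p = 0.296) and was not called. With dexamethasone the knockout was lower by 2.54 (SE 0.43, 5.82-fold, adjusted p = 0.00111), and without it the difference was -1.22 (adjusted p = 0.138).

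Serpina3c was at 4.07, 3.83, 3.90 and 4.19 on untreated wild-type arrays and at 6.00, 5.65, 5.84 and 5.78 on treated ones. In knockout the values were 1.39, 3.05, 2.88 and 3.46 untreated and 3.13, 2.79, 3.28 and 3.90 treated. Here too the treated wild-type arrays stood above all others, and all untreated knockout arrays were under the wild-type ones. It rose by 1.82 in wild type (SE 0.34, 3.52-fold, adjusted p = 0.00385), against 0.58 in knockout (adjusted p = 0.428), with a difference of the responses of -1.23 (95% interval -2.27 to -0.20, adjusted p = 0.194). Knockout levels were lower by 2.54 with dexamethasone (SE 0.34, 5.82-fold, adjusted p = 0.00022), and the difference of -1.31 without it was not called (adjusted p = 0.0538). The probes of Serpina3c and Serpina3n are at chr12:101641464-101641523 and chr12:101908030-101908089 (mm7), and the calls named for both held under each of the 29 alternatives.

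Serpina3k and Serpina3m, liver-secreted relatives in the same cluster (Serpina3k is known as contrapsin), had no called response to dexamethasone. Both were called lower in treated knockout than in treated wild type, and Serpina3k also between untreated genotypes. Serpina3k was at 9.79, 9.56, 9.47 and 10.26 on untreated and 9.96, 9.87, 10.10 and 10.07 on treated wild-type arrays. The knockout arrays had 9.11, 9.12, 8.85 and 8.10 without and 9.35, 9.13, 9.02 and 9.08 with dexamethasone. Every knockout array was under every wild-type array. It was lower in knockout by 0.97 without dexamethasone (SE 0.21, adjusted p = 0.0283) and by 0.86 with it (SE 0.21, adjusted p = 0.0111). The response to dexamethasone was 0.23 in wild type and 0.35 in knockout, neither called. The second probe of Serpina3k had -0.50 and -0.44 for the same genotype differences and was not called in either (adjusted p = 0.15 and 0.098). The call between untreated genotypes did not survive the removal of untreated wild-type array 1, 2 or 4 (-1.04 to -0.81, adjusted p = 0.056 to 0.0607).

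Serpina3m stood at 9.84, 9.52, 9.44 and 10.08 in untreated and at 9.97, 9.79, 10.01 and 9.94 in treated wild type. Its knockout values were 9.29, 9.35, 9.05 and 8.56 untreated and 9.38, 9.24, 9.18 and 9.23 treated, all below the wild-type values. The spot was saturated on 1 array. With dexamethasone it was lower in knockout by 0.67 (SE 0.17, 1.59-fold, adjusted p = 0.0138), and without it the difference was -0.66 (adjusted p = 0.056). Some hepatocyte markers were lower in the same comparisons, and their part in the result was not tested. Apoa1 and Cps1 were called lower in knockout without dexamethasone (-0.88 and -0.89) and Apoa1, Cps1 and Tat with it (-0.80, -1.28 and -1.45), out of 6 hepatocyte markers tested. The others were not called, with 0.11 and -0.06 for Alb, 0.05 and 0.13 for Ttr and -0.41 and -0.18 for Apob without and with dexamethasone, and -0.81 for Tat without it. For dexamethasone in wild type Tat was the 1 called of the 6 (1.06, adjusted p = 0.011), and Cps1 had 0.62 (adjusted p = 0.078). The summed level of the 6, in units of the 75th percentile, was 2210 to 2650 in treated wild type and 1600 to 1930 in treated knockout, with overlap between the untreated groups (1770 to 2770 and 1700 to 2510).

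Serpina3b was above background on 1, 0, 0 and 3 arrays of untreated wild type, treated wild type, untreated knockout and treated knockout, and it passed the filter through the last of these groups alone. As a description, with dexamethasone it was at least 1.35-fold higher in knockout than in wild type. For dexamethasone in wild type no fold is given, since neither side was measured well enough, and that call was also lost without untreated wild-type array 1 or 4 or treated wild-type array 2 or 3 (-1.49 to -1.39, adjusted p = 0.0573 to 0.0667). Serpina3f and Serpina3g, named here after their values were seen, were not called in any comparison of the main fit. With the replicate number as a block, given further below, both were called for dexamethasone in knockout. Serpina3g, which is also expressed in leukocytes, had -0.84 in wild type and -1.15 in knockout (adjusted p = 0.119 and 0.0736), and Serpina3f -0.81 and -1.20 (adjusted p = 0.172 and 0.0846).

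**Figure D2:**
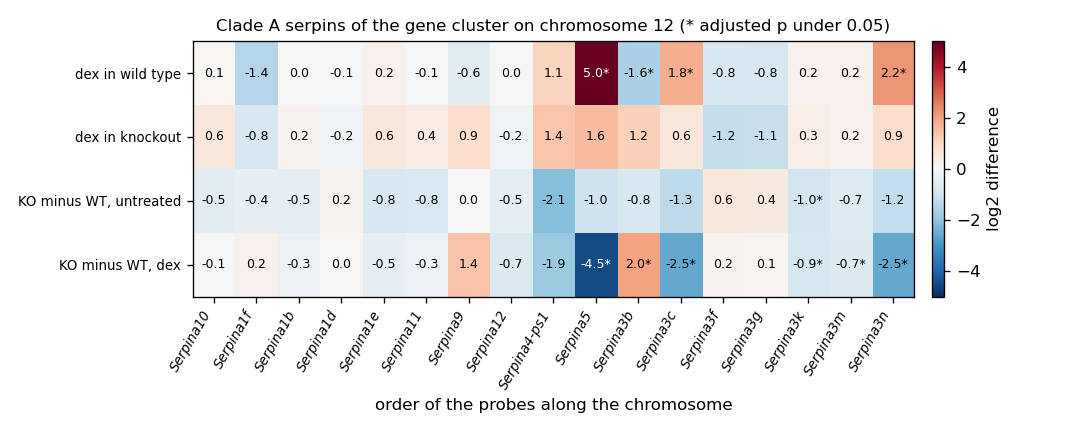
Log2 differences of the 17 tested clade A serpins on chromosome 12, in the order of their probes along it, for 4 comparisons, with an asterisk where the adjusted p is under 0.05. The 6 genes with an asterisk are Serpina5, Serpina3b, Serpina3c, Serpina3k, Serpina3m and Serpina3n, all in the stretch from Serpina5 on, and Serpina5 has the darkest cells (4.98 and -4.46).

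Serpina5, the protein C inhibitor, which also acts on other coagulation proteases, was called higher with dexamethasone in wild type. It was at -4.53, -5.43, -5.44 and -2.67 on untreated wild-type arrays and at 1.37, -0.12, 0.31 and 0.29 with dexamethasone. The knockout values were -6.22, -5.81, -7.52 and -2.65 without and -4.07, -3.64, -5.38 and -2.90 with dexamethasone. Only treated wild type was above background on all 4 arrays, against 2 in untreated wild type, 1 in untreated and 3 in treated knockout. The difference in wild type was 4.98 (SE 0.88, adjusted p = 0.00274), and under dexamethasone the knockout differed by -4.46 (SE 0.88, adjusted p = 0.00269). Both sizes rest in part on values not above background, so no fold is given for this probe. The knockout response of 1.55 was not called (adjusted p = 0.407), nor was the difference of the responses (-3.43, 95% interval -6.08 to -0.78, adjusted p = 0.151). The second probe, whose sequence is given above, was above background on the 4 treated wild-type arrays and on no other array. It passed the filter through that group alone, so its values are a description and no support for the first probe. By it Serpina5 was at least 2.76-fold higher with than without dexamethasone in wild type and at least 3.85-fold lower in treated knockout than in treated wild type. With normexp background correction the differences by the first probe were 3.09 and -2.65, still called.

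Serpina7, thyroxine-binding globulin, is a carrier of thyroid hormone and the clade A member on chromosome X. Its levels were 0.16, 1.19, 2.11 and -0.33 in untreated and 0.95, 0.69, 0.18 and 0.14 in treated wild type. In knockout they were 0.99, 1.88, 2.30 and 1.76 untreated and 4.14, 1.66, 1.90 and 1.35 treated. The treated knockout arrays lay above the treated wild-type ones, with array 1 far above the rest, and the untreated groups overlapped. The difference under dexamethasone was 1.77 (SE 0.58, 3.42-fold, adjusted p = 0.0411). It rested on single arrays, since the call was lost without any 1 of the 4 treated wild-type arrays, untreated knockout array 2 or treated knockout array 1 or 3 (1.15 to 1.93, adjusted p = 0.0506 to 0.112).

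The Serpina1 genes, which encode alpha-1-antitrypsin, the main plasma inhibitor of neutrophil elastase, are named for that role. None was called. Serpina1b was at 8.60 to 8.99 in untreated and 8.64 to 8.90 in treated wild type, and at 7.90 to 8.68 and 8.46 to 8.57 in knockout. The response to dexamethasone was -0.02 in wild type (95% interval -0.33 to 0.29) and 0.16 in knockout (-0.15 to 0.48), and untreated knockout differed from wild type by -0.47 (adjusted p = 0.10). For the shared Serpina1e probe the untreated genotype difference was -0.80 (95% interval -1.26 to -0.33, adjusted p = 0.0634), and for the shared Serpina1d probe it was 0.17 (-0.24 to 0.57, adjusted p = 0.693). These probes therefore did not all point 1 way, but single arrays weigh on this. The Serpina1d probe was at 10.73 on untreated knockout array 1, and at 9.96, 9.95 and 9.99 on the others of that group. On the untreated wild-type arrays it was at 9.96, 9.85, 9.73 and 10.43. The same knockout array was the lowest of its group for Serpina1b (7.90) and for the Serpina1e probe (6.80).

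In all, 11 tested clade A members were not called in any comparison, with differences from -2.12 to 1.44. The 3 furthest from 0 were Serpina4-ps1, Serpina1f and Serpina9. Serpina4-ps1, a pseudogene of the kallistatin type, spread widely, from -2.10 to 1.45 on untreated knockout and from 0.94 to 3.15 on untreated wild-type arrays, and its difference of -2.12 had an SE of 0.82 (adjusted p = 0.168). Serpina1f had -1.45 with dexamethasone in wild type (adjusted p = 0.354) and was above background on 3, 1, 1 and 0 arrays of the 4 groups. Serpina9, known from germinal centre B cells, had 1.42 in knockout under dexamethasone (adjusted p = 0.0936). Serpina11 had -0.77 in untreated knockout (adjusted p = 0.0602). For Serpina10, the protein Z-dependent inhibitor of coagulation factor Xa, 2 probes disagreed. The brighter was not called for dexamethasone in wild type (0.11, adjusted p = 0.881), while the other fell by 0.57 (SE 0.16, adjusted p = 0.035) and was higher by 0.70 in treated knockout than in treated wild type (adjusted p = 0.0076), these p adjusted over all probes. Over the 18 tested members of the clade the median difference of untreated knockout from wild type was -0.60, beside 0.05 over all genes. This median includes Serpina1f, which passed the filter through untreated wild type alone, so it had to be higher there. It also includes the shared Serpina1 probes, and 1 of the 18 was called in that comparison, Serpina3k. Single untreated knockout arrays weigh on it, since array 1 was the lowest for members such as Serpina3c and Serpina3n, and array 4 for Serpina3k and Serpina3m.

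**Figure D3:**
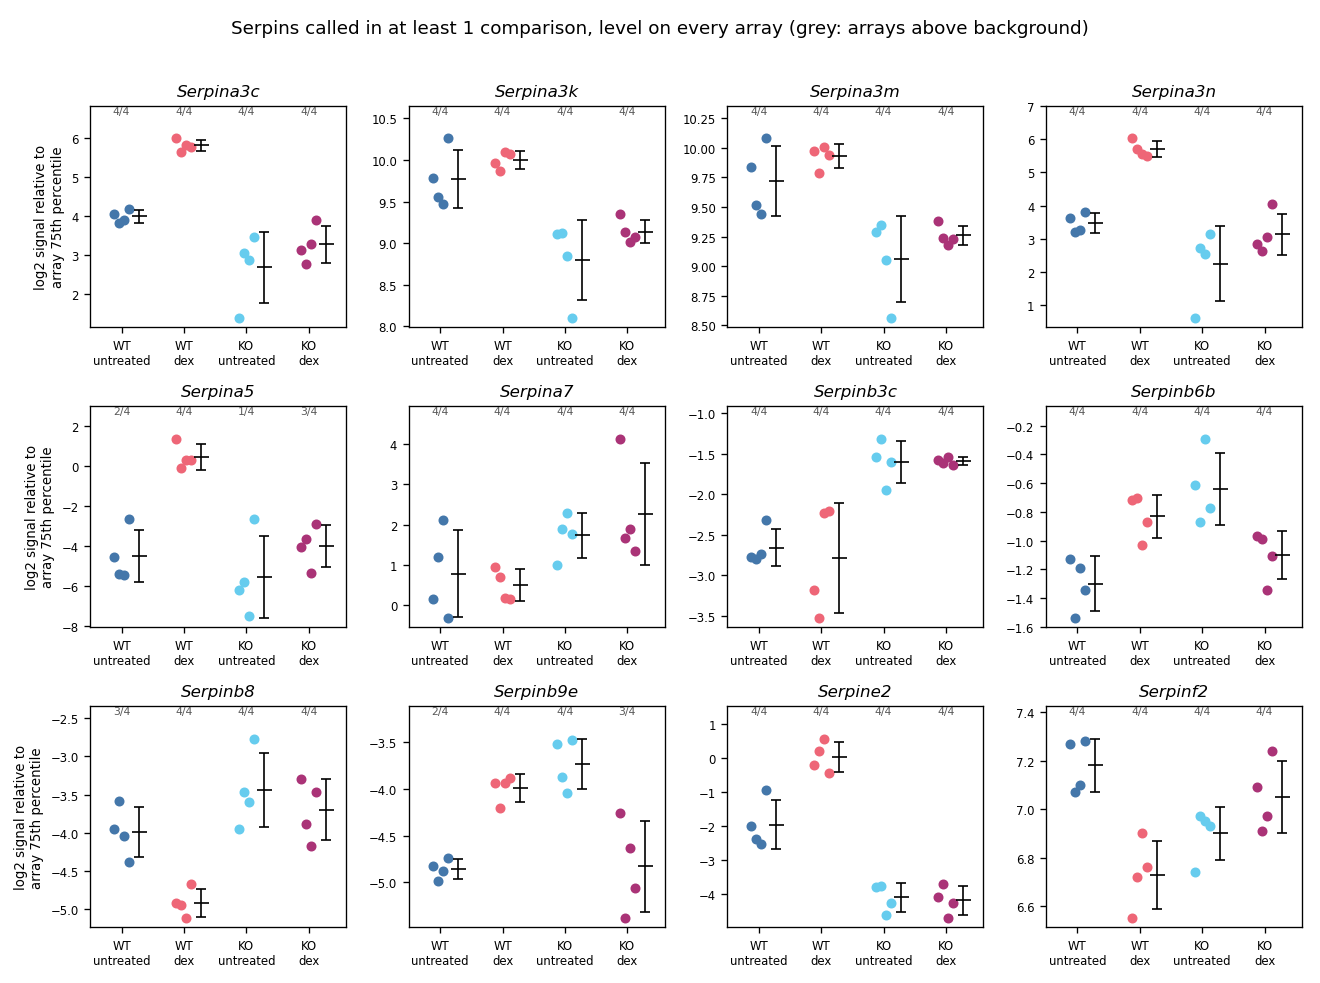
Level of 12 called serpins on each of the 16 arrays, as log2 signal relative to the array's 75th percentile, with the mean and SD of each group in black and the number of its arrays above background in grey; each panel has its own scale. The treated wild-type points stand above all others for Serpina3c, Serpina3n, Serpina5 and Serpine2, and the knockout points of Serpina3k all lie under the wild-type ones.

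Over the 5 comparisons 28.2% of all genes tested were called in at least 1, and so were 13 of the 36 tested serpins. Clade B has its genes in a cluster of 12 members on chromosome 1, of which 2 were tested and both called, and another of 12 on chromosome 13, of which 8 were tested and 2 called, numbers too small to set against each other. Serpinb9e, at chr13:32625534-32625593, belongs to the mouse relatives of the granzyme B inhibitor Serpinb9. It was at -4.83, -4.99, -4.88 and -4.74 in untreated and at -3.93, -4.20, -3.93 and -3.88 in treated wild type. In knockout it was at -3.52, -3.87, -4.04 and -3.47 untreated and at -4.26, -5.39, -4.63 and -5.06 treated. So it was higher with dexamethasone in wild type and lower with it in knockout, and in neither genotype did the treated and untreated arrays overlap. The changes were 0.87 (SE 0.21, adjusted p = 0.0135) and -1.11 (SE 0.21, adjusted p = 0.00962), with a difference of -1.98 (SE 0.29, adjusted p = 0.00296). Against wild type the knockout was higher by 1.13 without dexamethasone (adjusted p = 0.0114) and lower by 0.85 with it (adjusted p = 0.00956). These levels are near background, with 2, 4, 4 and 3 arrays of the 4 groups above it. With normexp background correction none of the 5 differences was called, and they were 0.19, -0.09, -0.28, 0.42 and 0.14.

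Serpinb6b, a relative of the cytosolic cathepsin G inhibitor Serpinb6a, had a called interaction of the same sign. It was at -1.13, -1.54, -1.19 and -1.34 in untreated and -0.72, -0.70, -1.03 and -0.87 in treated wild type. Its knockout values were -0.61, -0.87, -0.29 and -0.77 untreated and -0.97, -0.99, -1.34 and -1.11 treated. Treated and untreated arrays did not overlap in either genotype, yet neither response was called alone (0.47, adjusted p = 0.0533, and -0.46, adjusted p = 0.103). Their difference was called (-0.93, SE 0.21, adjusted p = 0.0221), as was the rise of 0.66 in untreated knockout over wild type (SE 0.15, adjusted p = 0.0304). Between treated genotypes the difference of -0.27 was not called (adjusted p = 0.209). The interaction call was lost without untreated wild-type array 2 or treated knockout array 3 (-0.85 for each, adjusted p = 0.0504 to 0.0511). The genotype call was lost without untreated wild-type array 2, 3 or 4 or untreated knockout array 3 (0.55 to 0.70, adjusted p = 0.0514 to 0.101).

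On chromosome 1, Serpinb8, an intracellular inhibitor of furin and trypsin-like proteases, was at -3.95, -3.58, -4.04 and -4.38 in untreated and -4.92, -4.95, -5.12 and -4.67 in treated wild type. Knockout arrays had -3.95, -3.46, -3.60 and -2.77 untreated and -3.30, -3.88, -4.17 and -3.47 treated. The treated wild-type arrays were under all others. It fell by 0.92 with dexamethasone in wild type (SE 0.25, adjusted p = 0.0253), and with dexamethasone it was higher by 1.21 in knockout than in wild type (SE 0.25, adjusted p = 0.0035). The second probe had -1.14 and 1.56 for these differences, both called, and was above background on no treated wild-type array, which gives at least 1.23-fold and at least 1.64-fold. The fall was no longer called without untreated wild-type array 1, 2 or 3 or treated wild-type array 1, 2 or 3 (-0.94 to -0.79, adjusted p = 0.0502 to 0.0908).

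Serpinb3c, one of the mouse squamous cell carcinoma antigen genes that inhibit cysteine and serine proteases, was the member higher in knockout under both treatments. It was at -2.77, -2.80, -2.74 and -2.32 in untreated and -3.18, -3.53, -2.23 and -2.20 in treated wild type. The knockout values were -1.54, -1.31, -1.94 and -1.60 untreated and -1.57, -1.61, -1.54 and -1.64 treated. Every knockout array was above every wild-type array. The difference was 1.06 without dexamethasone (SE 0.26, adjusted p = 0.0405) and 1.19 with it (SE 0.26, adjusted p = 0.0046). The first call was lost without untreated wild-type array 1, 2 or 3, untreated knockout array 1, 2 or 4, or treated knockout array 2 or 3 (0.97 to 1.06, adjusted p = 0.0529 to 0.114). A second probe, which crosses a splice junction, was above background on 0 of the 16 arrays. The first, from which the values come, was matched to no RefSeq gene in the annotation. The level of Serpinb3c therefore rests on the array's own name for that probe.

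The 6 other tested members of clade B were not called. The furthest from 0 were Serpinb1a, the elastase inhibitor of neutrophils and monocytes, at 1.57 in untreated knockout (SE 0.65, adjusted p = 0.199), its copy Serpinb1b, at 1.37 (adjusted p = 0.503), and Serpinb1c, at -1.17 with dexamethasone in knockout (adjusted p = 0.293). Serpinb1b was above background on 2, 1, 3 and 2 arrays of the 4 groups. It passed the filter through untreated knockout alone, so it had to be higher there. Over the 10 tested, Serpinb1b included, the median difference of untreated knockout from wild type was 0.86, beside 0.05 over all genes. Leukocyte markers are given beside this clade, and their part in the result was not tested. Between untreated genotypes limma called 0 of the tested neutrophil, B cell, T and NK cell and Kupffer cell markers, with 2, 1, 1 and 4 higher at an unadjusted p under 0.05. Of 7 neutrophil markers 4 were tested, and their summed level was 0.674 to 2.37 in untreated and 0.29 to 0.693 in treated wild type, and 1.16 to 4.37 and 0.491 to 2.15 in knockout, with Elane above background on 0 of the 16 arrays and Ngp and Camp on 1 each. S100a9 fell by 2.01 with dexamethasone in wild type, where S100a8 had -1.73, Ltf 0.41 and Mpo 0.65, none of them called, and Ltf was higher by 1.39 in treated knockout than in treated wild type. The sum of 4 B cell markers, of which Cd79b and Ms4a1 fell with dexamethasone in both genotypes and Cd79a was higher in treated knockout than in treated wild type, was 0.634 to 0.775 and 0.28 to 0.393 in untreated and treated wild type, and 0.793 to 2.05 and 0.395 to 0.545 in knockout. For 6 T and NK cell markers the sums were 1.44 to 1.67, 1.13 to 1.57, 1.65 to 2.55 and 0.888 to 1.46 in the same order, and Cd3e and Cd3g were the members called. Cd3g fell by 0.78 with dexamethasone in wild type. Cd3e fell by 0.93 with it in knockout, with an interaction of -1.10, and was lower in treated knockout than in treated wild type (-0.69), where the other 5 had 0.38 to 0.92, not called. Of 7 Kupffer cell markers 0 were called by limma in any comparison, and their sums were 51.3 to 70.4, 33.0 to 58.9, 64.7 to 129 and 49.1 to 90.1.

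**Figure D4:**
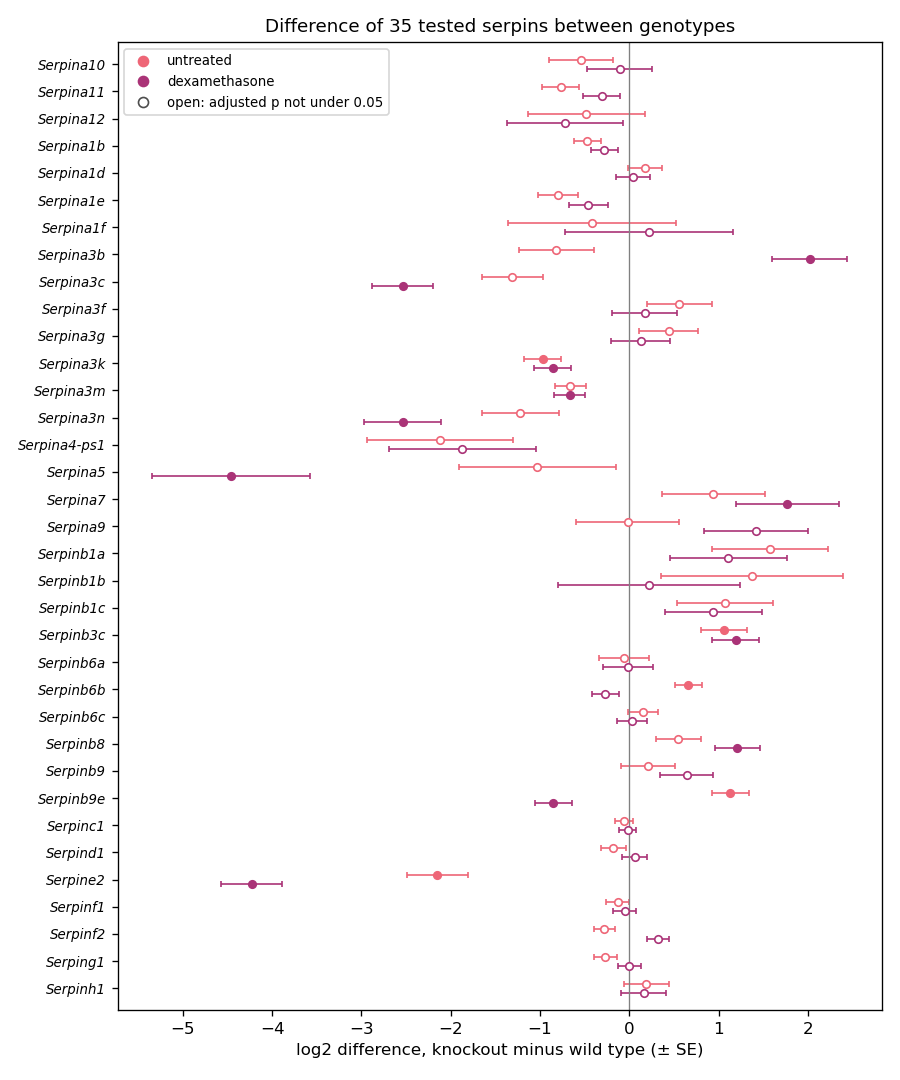
Log2 difference, knockout minus wild type, of 35 of the 36 tested serpins without (pink) and with (purple) dexamethasone, with the SE of the fit as bars and filled points where the adjusted p is under 0.05. Serpine2 stands at -2.15 and -4.23, and Serpinb3c is right of 0 under both treatments (1.06 and 1.19).

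Serpine2, protease nexin 1, a cell surface and matrix inhibitor of thrombin and plasminogen activators, differed most between genotypes among members above background on all arrays. It was at -2.01, -2.38, -2.52 and -0.94 in untreated and -0.21, 0.21, 0.57 and -0.45 in treated wild type. In knockout it was at -3.79, -3.76, -4.63 and -4.27 untreated and at -4.09, -3.72, -4.73 and -4.28 treated. The knockout groups overlapped, and both lay under every wild-type array. It rose by 1.99 with dexamethasone in wild type (SE 0.34, 3.98-fold, adjusted p = 0.00223), against -0.09 in knockout (95% interval -0.82 to 0.63), and the difference of the responses was -2.09 (SE 0.48, adjusted p = 0.024). The knockout differed from wild type by -2.15 without (SE 0.34, 4.44-fold lower, adjusted p = 0.00657) and by -4.23 with dexamethasone (SE 0.34, 18.8-fold lower, adjusted p = 1.03e-05). Serpine2 levels in knockout were above background on all arrays but as low as those of Serpinb9e, which are near background. The size of the differences that involve knockout is therefore uncertain. The interaction call was lost without untreated wild-type array 2, treated wild-type array 3 or treated knockout array 3 (-1.95 to -1.91, adjusted p = 0.0519 to 0.0562). With normexp background correction the differences in the order given were 1.61, called, -1.42 and -1.03, not called, and -2.45, called.

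Markers of cells other than hepatocytes are given beside Serpine2, which such cells also make, and their part in the result was not tested. Of 7 stellate cell and fibroblast markers 0 were called by limma in any comparison (at most 2 in one comparison had an unadjusted p under 0.05), with sums of 72.0 to 86.7 in treated wild type, 54.0 to 86.0 in untreated wild type and 58.8 to 81.8 and 61.1 to 73.5 in knockout. Of 4 platelet markers 0 were called in any comparison (2 had an unadjusted p under 0.05, between untreated genotypes), and their sums were 0.735 to 1.01, 0.723 to 1.43, 1.02 to 2.48 and 0.788 to 1.44 in untreated and treated wild type and untreated and treated knockout. Of 5 endothelial markers Lyve1 rose and Kdr fell with dexamethasone in wild type (2.41 and -1.13) and in knockout (2.58 and -1.03). For the same responses Stab2 had -0.18 and -0.17, Pecam1 0.24 and 0.39, and Cdh5 -0.09 and -0.20, none called. The endothelial sums were 7.63 to 9.71 and 8.59 to 12 in untreated and treated wild type, and 7.8 to 11.6 and 11 to 15.4 in knockout. The sum of 4 cholangiocyte markers was higher in treated wild type (2.10 to 2.45) than in untreated wild type (1.04 to 1.87) and treated knockout (1.05 to 1.67), and Sox9 rose by 1.35 in wild type. For these 4 the median difference was 0.39 with dexamethasone in wild type, where 1 was called. Between treated genotypes the median was -0.63, with 1 called lower. The 5 tested pancreatic acinar markers summed to 9.31 to 13.6 in treated wild type, 5.03 to 6.32 in untreated wild type and 2.36 to 5.37 and 2.94 to 5.32 in knockout, with Amy2 at a difference of -2.01 in treated knockout from treated wild type. In that comparison Cpa1 had -1.61, Ctrb1 0.30, Cel 0.33 and Cela1 0.52, none of them called, with a list median of 0.30 and Pnlip above background on 2 of the 16 arrays.

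Among the remaining liver-secreted inhibitors, Serpinf2, alpha-2-antiplasmin, the main inhibitor of plasmin, was called. It was at 7.27, 7.07, 7.10 and 7.28 in untreated and 6.55, 6.72, 6.90 and 6.76 in treated wild type. The knockout values were 6.74, 6.97, 6.95 and 6.93 untreated and 7.09, 6.91, 6.97 and 7.24 treated. Treated wild-type arrays lay under the untreated ones, and the knockout groups overlapped. It fell by 0.45 with dexamethasone in wild type (SE 0.12, 1.36-fold, adjusted p = 0.0207). Without untreated or treated wild-type array 1 that call was lost (-0.42 to -0.39, adjusted p = 0.0628 to 0.0772). The difference between the responses of 0.60 (SE 0.16) was at the threshold (adjusted p = 0.0496), and it was no longer called when any 1 of 15 arrays, all but untreated knockout array 1, was left out (0.54 to 0.66, adjusted p = 0.0519 to 0.107).

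Serpinc1, antithrombin, the main inhibitor of thrombin and factor Xa, was at 8.76 to 9.04 in untreated and 8.67 to 8.84 in treated wild type, and at 8.74 to 9.01 and 8.67 to 8.86 in knockout. All 4 groups overlapped. Its response was -0.16 in wild type (95% interval -0.38 to 0.07) and -0.11 in knockout (-0.33 to 0.11), and the genotype differences were -0.06 and -0.02. A second probe of Serpinc1 had differences from -0.38 to 0.38 over the 5 comparisons, none called. Serpind1, heparin cofactor II, which inhibits thrombin in the presence of glycosaminoglycans, had -0.15 in wild type (-0.45 to 0.14) and 0.10 in knockout (-0.20 to 0.39). Serping1, the C1 inhibitor of complement and of the contact system, had -0.08 (-0.36 to 0.20) and 0.18 (-0.10 to 0.46), with -0.27 in untreated knockout against wild type (adjusted p = 0.286). Serpinf1, pigment epithelium-derived factor, which has no known protease target, had differences from -0.13 to 0.08 over the 5 comparisons. By its second probe they ran from -0.65 to 0.53 (SE 0.39 to 0.54), none called. Serpinh1, a chaperone of collagen folding in the endoplasmic reticulum, had -0.45 with dexamethasone in wild type and -0.48 in knockout (adjusted p = 0.263 and 0.354). None of these 5 was called in any comparison.

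Beyond the serpins, 27 of 30 listed target proteases, cofactors and receptors were tested. In wild type 2 rose with dexamethasone, Thbd, thrombomodulin, by 1.66 (SE 0.31, adjusted p = 0.0039), and Mcfd2, a cargo receptor subunit for coagulation factors, by 0.60, beside 5.11% of all genes, and none was called lower (6.86%). In knockout Gzmb, granzyme B, fell by 0.98 (adjusted p = 0.022), and it was the 1 called (2.44% of all genes lower). Between untreated genotypes Gzmb was higher in knockout by 0.90 (adjusted p = 0.039) and Plg, plasminogen, the precursor of the protease that Serpinf2 inhibits, lower by 0.64 (adjusted p = 0.02), beside 2.07% and 0.752% of all genes. With dexamethasone the neutrophil proteases Ctsg and Prtn3 were higher in knockout by 0.81 and 1.16, while the coagulation factor F9, the convertase Furin and Mcfd2 were lower by 0.82, 0.74 and 0.58, beside 14.2% and 8.21% of all genes. For the interaction limma called 0 of the 27, while 1 with a positive and 2 with a negative difference had an unadjusted p under 0.05. The median of the list was -0.13 for dexamethasone in wild type, beside -0.04 over all genes. Of 6 collagens that Serpinh1 helps to fold, Col4a1 rose by 0.84 with dexamethasone in wild type (adjusted p = 0.035), and there was no other call. Of 13 other plasma protease inhibitors, Tfpi, the tissue factor pathway inhibitor, fell by 0.81 with dexamethasone in knockout (adjusted p = 0.0098) and Itih3 was lower by 0.50 in treated knockout than in treated wild type (adjusted p = 0.028), and there was no other call in that list.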

How the data were processed

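Per the submitters' processing notes, the scanner files come from Agilent Feature Extraction 9.5. The deposited processed signal is an intensity, background-subtracted and detrended within each array, and mean and local background signals are intensities too, per the file headers. Per the file headers, other columns are flags that mark spots above background, saturated or outlying. The series table the authors deposited holds the same intensity (largest difference 0), so arrays were not yet normalized to each other.

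Each array held 45018 spots, 1639 of them controls, and 41174 transcript probes. Control spots were left out and 2121 outlying spots (0.31%) set to missing. Spots of 1 probe were averaged, and log2 signals were taken relative to the 75th percentile of the array. The filter asked for 3 of 4 arrays above background in some group (26794 probes), and the brightest probe stood for its gene (18476 genes). Names came from RefSeq accessions for 22951 probes, from symbols or synonyms for 9768, and from the array alone for 8455. Limma 3.58.1 in R 4.3.3 fitted 4 group means with 12 residual degrees of freedom. Where a group was above background on 0 arrays, the fold is a lower bound against the dimmest signal above background. The fit was tested on simulated data.

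Members called in some comparison and above background on all arrays of some group are given on every array. Others are given by clade, with the 3 furthest from 0. Members and lists were chosen with earlier results of these data known. Promoters were aligned with Biopython 1.88 in Python 3.11.15, and figures were drawn with matplotlib 3.10.9. No annotation of exons on the mm7 build was used here. Alternatives were quantile normalization, normexp (offset 50), scaling by bright probes, a stricter filter or none, outlying spots kept, probes averaged, a trended robust variance, array weights, the replicate number as a block, only the groups compared, the series table, and arrays left out. The values of 1 tested member, counted in all totals, are not reported here.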

Additional observations from a re-analysis of the deposited data

Results flagged for a closer look

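Single arrays stood apart for 4 of the 52 combinations of a named gene and a group that were looked at, where chance alone gives about 1 in 20. Serpina3b was at -7.22 on untreated knockout array 2, against -5.71 to -5.43 on its other arrays, all of them not above background. Serpinb9e was at -4.20 on treated wild-type array 2, against -3.93 to -3.88. Serpinf2 was at 6.74 on untreated knockout array 1, the array with the lowest 75th percentile, against 6.93 to 6.97. Serpinb3c was at -2.32 on untreated wild-type array 4, the other array with a low 75th percentile, against -2.80 to -2.74.

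The response to dexamethasone differed between genotypes by its own test in limma for 5 members. The knockout response minus the wild-type response was -2.09 for Serpine2, -1.98 for Serpinb9e, -0.93 for Serpinb6b, 0.60 for Serpinf2 and 2.84 for Serpina3b. The value for Serpina3b is not read as a difference, because treated wild type and untreated knockout were not above background on any array and the gene passed the filter through treated knockout alone. For Serpinb9e and Serpinb6b all arrays moved up with dexamethasone in wild type and down in knockout, relative to their untreated groups.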

How the results depend on the processing

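Of the 30 calls of single members, 12 held under each of the 29 alternatives and 20 held without any 1 array. The 12 were those of Serpina3c, Serpina3n and Serpina5 for dexamethasone in wild type and between treated genotypes, of Serpine2 in the same comparisons, and of Serpina3k, Serpina3m, Serpinb3c and Serpinb8 between treated genotypes. With normexp background correction 17 calls were lost, and the difference of Serpinb9e between treated genotypes turned from -0.85 to 0.14; the cause was not tested. The number of serpins called then was 4 for dexamethasone in wild type (8 otherwise), 0 in knockout (1), 0 for the interaction (5) and 0 between untreated genotypes (5), with 1206, 58, 102 and 84 genes called in all, against 2212, 671, 853 and 521. It also moved the median of all genes to 0.18 between treated genotypes and 0.11 for the interaction, and the share of calls that were higher from 32.8% to 44.8% in knockout, from 41.7% to 28.4% for the interaction and from 73.3% to 54.8% between untreated genotypes.

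Array weights gave 3 calls for dexamethasone in knockout, 8 for the interaction and 8 between untreated genotypes, with 1807, 2729 and 1587 calls over all genes. Between untreated genotypes 2 were called without a filter, 1 with only the groups compared and 3 with both dim arrays left out. In knockout 0 were called with only the groups compared. Of single calls 5 were lost without a filter, 5 with only the groups compared, 4 with both dim arrays left out, 2 with probes averaged and 1 with quantile normalization. Leaving out 1 array gave 6 to 9 calls for dexamethasone in wild type, 1 to 2 in knockout, 2 to 7 for the interaction, 2 to 6 between untreated and 10 to 14 between treated genotypes, where all other alternatives gave 8 to 16.

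Samples of 1 replicate number were not treated as pairs, because the labels do not say that the number links samples across groups. Over 24 same-numbered pairs the correlation of deviations ran from -0.186 to 0.347, 10 of them over 0.1. In 24 of 48 comparisons the best match had the same number, where chance gives 12. Same-numbered samples were thus matched more often than chance gives, and the choice affects some calls. With the replicate number as a block 4 serpins were called for dexamethasone in knockout, Serpinb9e, Serpina3b (1.21, adjusted p = 0.0316), Serpina3f (-1.20, adjusted p = 0.035) and Serpina3g (-1.15, adjusted p = 0.0343), with 807 genes called in all. The block also called the interaction of Serpina5 (-3.43, adjusted p = 0.0422, against 0.151 without the block). Between untreated genotypes it called Serpina3c (-1.31, adjusted p = 0.0445, against 0.0538). It ended 1 of the 30 calls, that of Serpinf2 for the interaction. Signal over background limits Serpina3b, Serpina5, Serpinb8, Serpinb9e and Serpine2, whose levels in some groups were at or near it.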

Other observations

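Serpins that the array lists under other names were not among the members. The probe named E130113E03Rik matched Serpine3 in RefSeq, which is named here after its values were seen. It was at -3.92, -4.42, -4.57 and -3.31 in untreated and -4.56, -5.89, -3.83 and -4.64 in treated wild type, and at -3.18, -3.62, -3.69 and -3.26 in untreated and -2.95, -3.23, -3.30 and -3.38 in treated knockout. All knockout arrays with dexamethasone lay above the treated wild-type ones, and the difference was 1.51 (SE 0.35, adjusted p = 0.0075 by limma), with 2 of 4 treated wild-type arrays above background. Agt, angiotensinogen, a serpin that gives rise to the angiotensins, was not called in any comparison (0.00 between untreated and -0.16 between treated genotypes, SE 0.19).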
